A study of Mus musculus with 2 samples.

Results

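The HOX genes, together with the Cdx, Meis and Pbx genes that work with them, were followed in Flk-1-positive early mesodermal cells made from mouse embryonic stem cells. Members were the probes whose annotated symbol was Hoxa, Hoxb, Hoxc or Hoxd with a paralog number, or Cdx, Meis or Pbx with a number, taking the brightest probe of a gene by the mean spot median of both arrays. The rule gave 40 of 16444 named genes, of which 33 were HOX, 3 Cdx, 1 Meis and 3 Pbx, each with 1 probe. RefSeq lists 49 mouse symbols of these forms, and the other 9 were not analysed here.

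The gene-trapped cells carried a disruption of AU019823 on both alleles by a gene trap, a cassette that interrupts transcripts. The revertant cells are labelled as nearly of the wild-type genotype, and series and labels name both as derivatives of embryonic stem cells that differentiated on OP9 stroma, a bone marrow line that promotes blood formation. After a coculture of 4 days (day 4.5 in the sample descriptions), cells with surface Flk-1, the product of Kdr, were sorted, and RNA of 300000 gene-trapped and 350000 revertant cells was measured on 1 one-colour array per group. The labels give the samples different codes without saying what they stand for. Should the codes be clones, the effect of a clone and that of the genotype cannot be told apart. With 1 array per group there was no replicate check and no test, so each difference compares these 2 libraries only.

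HOX genes encode homeodomain transcription factors that give cells of the trunk their position along the body axis. Each cluster is opened in order, so that genes with low paralog numbers come on first in the primitive streak and those with high numbers later, and their domains are set up in part by Cdx factors. Pbx and Meis proteins are homeodomain cofactors of another class, which bind DNA together with HOX proteins and sharpen their choice of site.

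The spot median, a linear scanner intensity without background subtraction, had a median over probes of 38.6 on the gene-trapped array and 47.5 on the revertant array. Above background means a spot median over the blank spots' mean plus 2 SD, a limit of 22.3 on the gene-trapped and 25 on the revertant array. The targeted gene had spot medians of 297 in gene-trapped and 486 in revertant cells (AU019823, log2 difference -0.39). The place of its probe relative to the trap is unknown, so this checks no label. Of 12 early mesoderm markers, 12 were above background on both arrays, among them Kdr at 537 in gene-trapped and 1025 in revertant cells (log2 difference -0.65, and -2.04 with the scanner's local background subtracted).

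Most members gave weak signals, and their normalised values were much alike on both arrays. Of the 40 members, 32 were above background on both arrays, 4 on 1 array only and 4 on neither. Log2 differences, gene-trapped minus revertant after background correction and quantile normalisation, ran from -0.49 at Hoxb1 to 0.51 at Pbx3. None of the 32 was at least 2-fold higher, where the share among 13753 named genes above background on both arrays was 0.334%. None was at least 2-fold lower either, against a share of 1.08%. The median difference was 0.05 over the 32 members, with 20 above 0, and 0.01 over all named genes. Raw spot medians were higher in gene-trapped cells at 4 of the 32 members, which are Hoxb6, Hoxb7, Hoxd9 and Pbx3, and at 1750 of the 13753 named genes.

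**Figure D1:**
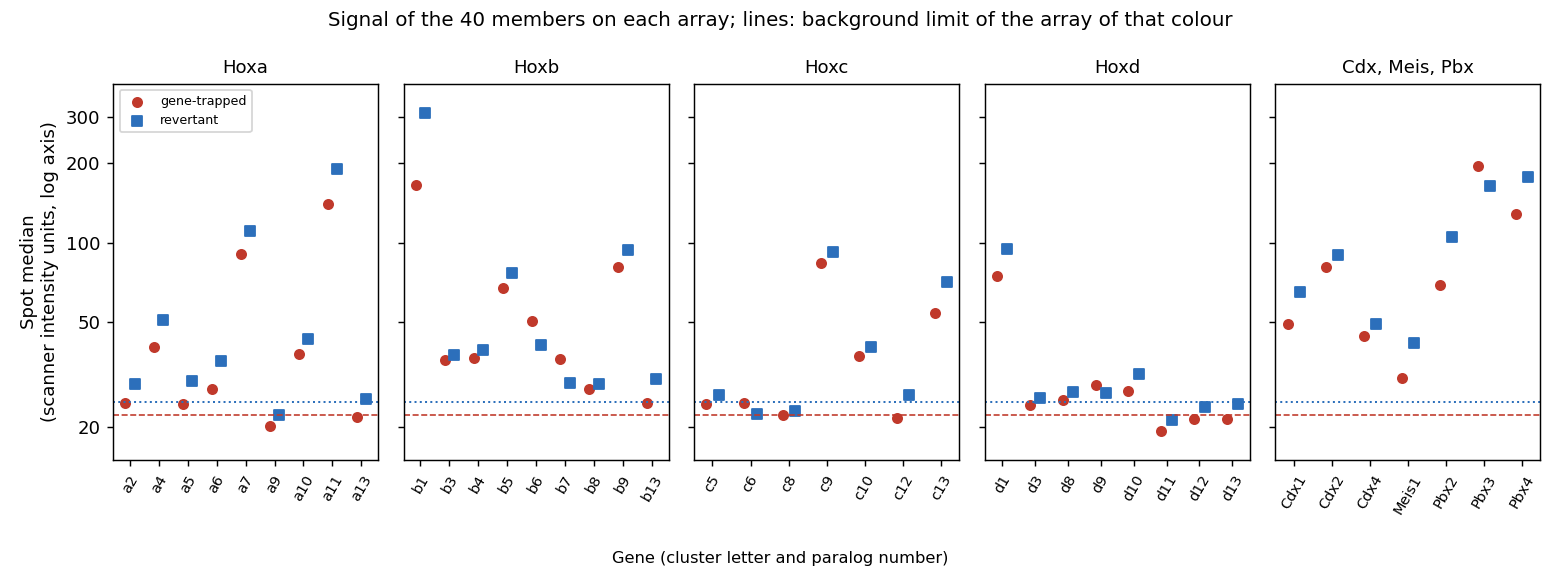
Spot median (scanner intensity, log axis) of each of the 40 members, by HOX cluster and paralog number, on the gene-trapped array (red circles) and the revertant array (blue squares). Lines mark the background limits of 22.3 (dashed, gene-trapped) and 25 (dotted, revertant); 4 members lie below both limits, and Hoxb6, Hoxb7, Hoxd9 and Pbx3 are brighter on the gene-trapped array.

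Which clusters and positions gave a signal was described first. All 9 measured Hoxb genes were above background on both arrays, as were 7 of 9 Hoxa genes, 4 of 7 Hoxc genes and 5 of 8 Hoxd genes. By paralog number, 5 of 5 genes numbered 1 to 3 were above background on both arrays, 11 of 13 numbered 4 to 8 and 9 of 15 numbered 9 to 13. The 4 genes above background on neither array were Hoxa9, Hoxd11, Hoxd12 and Hoxd13. Over all named genes, 13753 of 16444 were above background on both arrays, a share close to that of the members. With so few genes in each class, no pattern by cluster or position was tested. The spot medians of Hoxa9, Hoxd11, Hoxd12 and Hoxd13 spanned 19.4 to 21.6 in gene-trapped and 21.4 to 24.5 in revertant cells. A probe near the limit does not show that a transcript is absent, and a pooled signal cannot tell fewer expressing cells from less RNA per cell.

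Of the 25 HOX genes above background on both arrays, Hoxb1 had the lowest difference and Hoxb6 the highest. After subtraction of the scanner's local background, Hoxa11 (-0.39) was lowest and Hoxb1 (0.48) highest, and in the authors' deposited table Hoxb1 (-0.61) was lowest and Hoxb7 (1.59) highest. Hoxb1, which opens first in the cluster and gives the hindbrain and early mesoderm an anterior HOX identity, had spot medians of 165 in gene-trapped and 310 in revertant cells. Its normalised log2 signals were 7.78 in gene-trapped and 8.27 in revertant cells, a difference of -0.49 (1.41-fold lower). Among the 500 named genes nearest in mean signal, 7.6% had a lower difference, so it was not at the edge of genes as bright as itself. Hoxb1 stayed below 0 in 6 of the 7 alternatives described further on, and changed sign only with the local background column subtracted. The scanner's local background beside the spot read 95.2 on the gene-trapped and 282 on the revertant array, which is 57.6% and 91.0% of the spot median. With that column subtracted the log2 difference became 0.48.

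Hoxb6 and Hoxb7, neighbours in the cluster that act in trunk patterning, were brighter in gene-trapped cells even before scaling. Hoxb6 had spot medians of 50.5 in gene-trapped and 41.0 in revertant cells, and a log2 difference of 0.36 (1.28-fold). Hoxb7 had 36.4 in gene-trapped and 29.5 in revertant cells, and a log2 difference of 0.29 (1.22-fold). Of the 500 nearest genes, 98.6% lay below Hoxb6 and 99.6% below Hoxb7. The offset of 50 added in background correction draws the ratio of a dim gene towards 1. In the authors' deposited table, which is close to the spot median less the blank mean divided by a constant per array, Hoxb6 had 26 in gene-trapped and 12.2 in revertant cells, a ratio of 2.13. In the authors' deposited table Hoxb7 had 13.9 in gene-trapped and 4.62 in revertant cells, a ratio of 3.02. Moving each spot by 2 SD of the blank spots, the widest spread of that ratio was 1.75 to 2.65 for Hoxb6 and 1.93 to 5.35 for Hoxb7, which covers the error of the blank level only.

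The rest of the Hoxb cluster lay between these genes. Hoxb5, which marks lateral and paraxial mesoderm of the neck and upper trunk, had spot medians of 67.7 in gene-trapped and 77 in revertant cells and a log2 difference of 0.11. Hoxb9, a thoracic gene, had 81.1 in gene-trapped and 94.0 in revertant cells and a log2 difference of 0.11. Hoxb3, Hoxb4 and Hoxb8 had 0.12, 0.10 and 0.08, and Hoxb13, which lies apart at the far end of the cluster, had -0.04. All 5 measured genes from Hoxb4 to Hoxb8 lay above 0 in this setting. With the local background subtracted Hoxb5 had -0.12. That column was 28.9% of its spot median on the gene-trapped and 24.2% on the revertant array. All 5 lay above 0 in the authors' deposited table, made from the same spots, with a median log2 difference of 0.58.

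Promoters of 24 members stand in a RefSeq table of build GRCm38.p6, Hoxb1, Hoxb4 and Hoxb8 among those of the Hoxb cluster. Their 250 bases before the gene start are given 5′ to 3′. The cluster was taken because it holds the HOX genes whose differences were the widest in each setting tried, namely Hoxb1, Hoxb6 and Hoxb7. Promoters of Hoxb6 and Hoxb7 were not available. The windows shown are those of the Hoxb genes with a match to a motif below, and Hoxb4 (0.10) and Hoxb8 (0.08) differed little between the arrays. Capitals mark matches on either strand to TTTATG (a Cdx motif), TGATNNAT (bound by HOX with Pbx), TGACAG (bound by Meis) or AGGTCA (the unit of which retinoic acid receptor sites are made). No 2 matches overlap.
Hoxb1 at chr11:96365508-96365757, plus strand: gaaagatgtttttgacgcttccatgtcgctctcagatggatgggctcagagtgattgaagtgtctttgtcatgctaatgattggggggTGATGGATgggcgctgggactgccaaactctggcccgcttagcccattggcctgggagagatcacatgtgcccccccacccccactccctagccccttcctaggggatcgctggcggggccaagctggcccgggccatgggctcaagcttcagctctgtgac
Hoxb4 at chr11:96318017-96318266, plus strand: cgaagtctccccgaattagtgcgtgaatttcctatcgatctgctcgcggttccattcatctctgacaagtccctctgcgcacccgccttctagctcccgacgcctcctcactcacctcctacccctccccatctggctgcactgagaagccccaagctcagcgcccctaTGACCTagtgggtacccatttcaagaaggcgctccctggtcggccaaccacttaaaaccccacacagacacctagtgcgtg
Hoxb8 at chr11:96281655-96281904, plus strand: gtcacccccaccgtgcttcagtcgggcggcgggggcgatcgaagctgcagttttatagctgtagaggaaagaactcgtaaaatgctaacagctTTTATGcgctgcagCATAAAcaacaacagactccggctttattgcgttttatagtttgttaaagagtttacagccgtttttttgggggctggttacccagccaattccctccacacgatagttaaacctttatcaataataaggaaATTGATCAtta
The Hoxb1 window holds 1 match to TGATNNAT, beginning 162 bases before the start, and Hoxb1 is known to maintain its own transcription with Pbx through sites of this form. The Hoxb8 window holds 1 match to TGATNNAT and matches to TTTATG on both strands, and the Hoxb4 window 1 match to AGGTCA on the minus strand. Over all 32851 promoters of the table, 7.68% hold TGATNNAT, 10.8% TTTATG, 15.9% TGACAG and 14% AGGTCA. Among the 24 members the counts were 4, 4, 1 and 4. A match is a description of the letters, not a bound site.

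**Figure D2:**
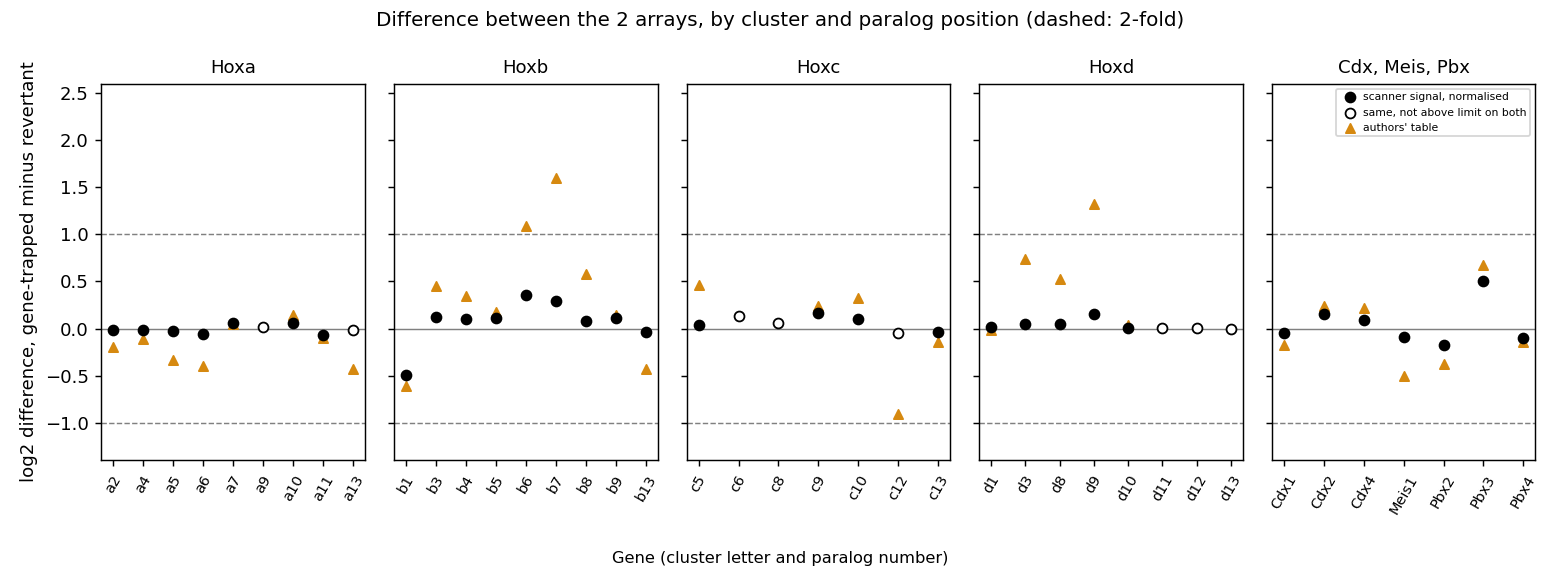
Log2 difference (gene-trapped minus revertant) of each member by cluster and paralog number. Black circles give the normalised scanner signal, open circles members not above background on both arrays, orange triangles the authors' deposited table, and dashed lines 2-fold. The black circles span -0.49 (Hoxb1) to 0.51 (Pbx3), and the triangles pass 2-fold at Hoxb6, Hoxb7 and Hoxd9.

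The Hoxa genes differed little between the arrays in the main setting. Their 7 genes above background on both arrays had differences from -0.06 at Hoxa11 to 0.06 at Hoxa7, with a median of -0.02 and 2 above 0. Hoxa7, active in trunk mesoderm, had spot medians of 90.8 in gene-trapped and 111 in revertant cells. Hoxa11, a limb and urogenital gene, had 141 in gene-trapped and 191 in revertant cells, and its log2 difference became -0.39 when the local background was subtracted. Hoxa13 was above background in revertant cells only, at 21.9 in gene-trapped and 25.6 in revertant cells, too close to the limits for a bound on its fold.

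In the Hoxc and Hoxd clusters the signal was weaker, and the genes near background set the limits. Hoxc9, a thoracic gene, had spot medians of 83.7 in gene-trapped and 92.4 in revertant cells and a log2 difference of 0.17. Hoxc13, known for its role in hair and nails, had 54.0 in gene-trapped and 70.9 in revertant cells and a log2 difference of -0.04. The local background beside the Hoxc13 spot was 98% of the spot median on the gene-trapped and 88.3% on the revertant array. Hoxc6, at 24.6 in gene-trapped and 22.6 in revertant cells, and Hoxc8, at 22.3 in gene-trapped and 23.0 in revertant cells, were above background in gene-trapped cells only. The bound for Hoxc6 was small, at least 1.06-fold higher, and Hoxc8 was too close to the limits for a bound on its fold. Hoxc12 was above background in revertant cells only, at 21.8 in gene-trapped and 26.5 in revertant cells, or at least 1.02-fold lower. Its log2 difference in the authors' deposited table was -0.91.

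Hoxd1, an anterior gene, had spot medians of 75 in gene-trapped and 94.6 in revertant cells and a log2 difference of 0.02. Hoxd9 had 28.8 in gene-trapped and 27.0 in revertant cells and a log2 difference of 0.15, above that of 99.2% of its 500 nearest genes. In the authors' deposited table Hoxd9 had 7.47 in gene-trapped and 2.98 in revertant cells, a ratio of 2.51. Its revertant spot stands close to the limit of 25, and moving each spot by 2 SD of the blanks gave a ratio between 1.22 and 7.12. The 5 Hoxd genes above background on both arrays had a median log2 difference of 0.05, and all lay above 0 in this setting. Hoxd1 kept that sign in 3 of the 7 alternatives described further on, with -0.08 under median scaling, -0.06 after local background subtraction and -0.02 in the authors' deposited table. Hoxd10 had -0.01 with the local background subtracted. The 14 HOX genes above background on both arrays that the naming rule left out had differences from -0.06 to 0.12, with 9 above 0. Their spot medians spanned 24.4 to 40.4 in gene-trapped and 25.8 to 50.9 in revertant cells.

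Of 34 members with both values in the authors' deposited table, 3 were at least 2-fold higher in gene-trapped cells, namely Hoxb6, Hoxb7 and Hoxd9, where the share among 14203 named genes was 2.01%. None of the 34 was at least 2-fold lower, against a share of 4.02%. The members' median log2 difference there was 0.10, and that of all named genes 0.02.

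Cdx genes, homologues of the fly gene caudal, link the WNT and FGF signals of the primitive streak to HOX activation. Cdx1 had spot medians of 49.3 in gene-trapped and 65.2 in revertant cells and a log2 difference of -0.05. Cdx2 had 81.0 in gene-trapped and 89.5 in revertant cells and a log2 difference of 0.16. Cdx4, which also acts in embryonic blood formation, had 44.3 in gene-trapped and 49.4 in revertant cells and a log2 difference of 0.09. All 3 were thus above background on both arrays and lay within the spread of genes of like brightness, with 34.8%, 76.0% and 79.6% of the nearest 500 genes below Cdx1, Cdx2 and Cdx4.

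Among the cofactors Pbx3 differed most, and its sign held in all 7 alternatives. Pbx3, which pairs with HOX proteins in limb, hindbrain and gut, had spot medians of 194 in gene-trapped and 164 in revertant cells. Its log2 signals of 7.97 in gene-trapped and 7.47 in revertant cells gave a difference of 0.51 (1.42-fold), above that of 95% of the nearest 500 genes. By size it was the widest difference of the members in this setting only, with Hoxb1 wider in 4 of the 7 alternatives, Hoxb6 in 2 and Hoxb7 in the authors' table. Pbx2, a widely expressed cofactor, had spot medians of 69.1 in gene-trapped and 105 in revertant cells and a log2 difference of -0.18 (1.13-fold lower). Pbx4 had 128 in gene-trapped and 177 in revertant cells and a log2 difference of -0.10. Meis1, which stabilises Pbx in the nucleus and is needed for blood stem cells, had 30.6 in gene-trapped and 41.8 in revertant cells and a log2 difference of -0.09. The Pbx genes therefore did not share 1 direction, and of them Pbx3 lay above 0 while Pbx2 and Pbx4 lay below.

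**Figure D3:**
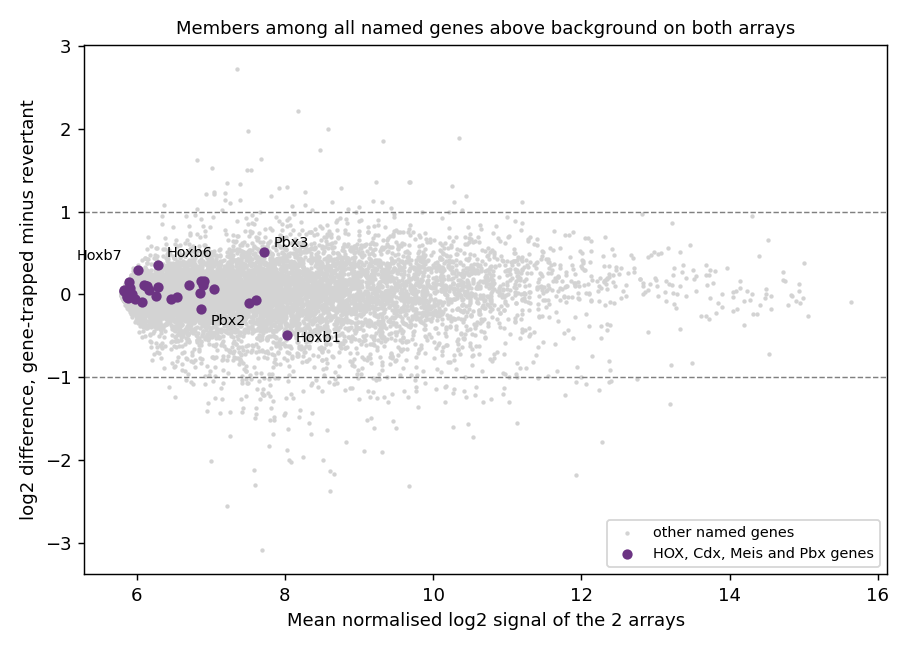
Log2 difference (gene-trapped minus revertant) against mean normalised log2 signal for the named genes above background on both arrays, with the 32 members in purple and dashed lines at 2-fold. The members sit at the dim end of the range, and none passes either line.

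How far these directions depend on processing was followed for the 32 members above background on both arrays. Under 7 alternatives that change the value (median scaling, 75th percentile scaling, cyclic loess, an offset of 16, no background correction, local background subtracted, the authors' table) 17 members kept their sign throughout. Of these, 14 lay above 0, with Hoxb6, Hoxb7, Hoxd9, Hoxc9, Cdx2 and Pbx3 among them, and 3 below 0, which are Hoxa11, Pbx2 and Pbx4. This split favours signs above 0, since 75th percentile scaling moved the median of all named genes to 0.15. In that setting 28 of the 32 members lay above 0, and Hoxa4, Hoxc13 and Meis1 lost their sign there only. The share of all named genes that kept their sign was not computed. Pbx3 ranged from 0.33 to 0.68, Hoxb6 from 0.18 to 1.09 and Hoxb7 from 0.08 to 1.59. Of the other 15, Hoxb1 had the widest range, from -0.65 under median scaling to 0.48 with the local background subtracted.

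**Figure D4:**
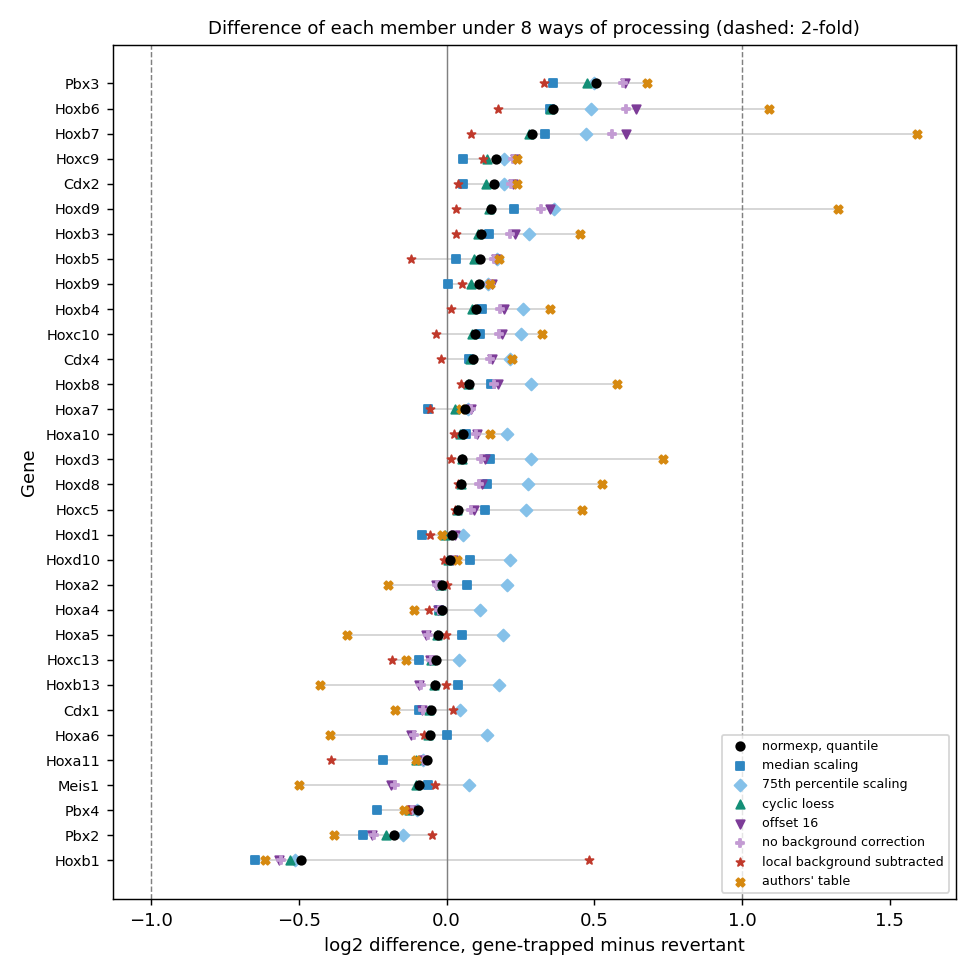
Log2 difference (gene-trapped minus revertant) of each of the 32 members above background on both arrays under 8 ways of processing, ordered by the main value (black circles), with dashed lines at 2-fold. Pbx3, Hoxb6 and Hoxb7 stay right of 0 in all 8, while Hoxb1 stays left of 0 in all but the subtraction of local background, where it lies at 0.48.

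The share of the spot median that the local background column reached varied between members. At Hoxb5, Hoxb6, Hoxb9 and Hoxd1 the local background was under 50% of the spot median on both arrays, with 28.9%, 35.4%, 22.7% and 32.0% on the gene-trapped array. Over all 40 members its median share was 71.2% on the gene-trapped and 63.0% on the revertant array. Across all probes this column followed spot brightness, with a Pearson correlation of log2 values over probes of 0.96 on the gene-trapped and 0.97 on the revertant array. The column is therefore not a reading of the surroundings that is independent of the spot. Probes on 1 array share its scan and are not independent.

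**Figure D5:**
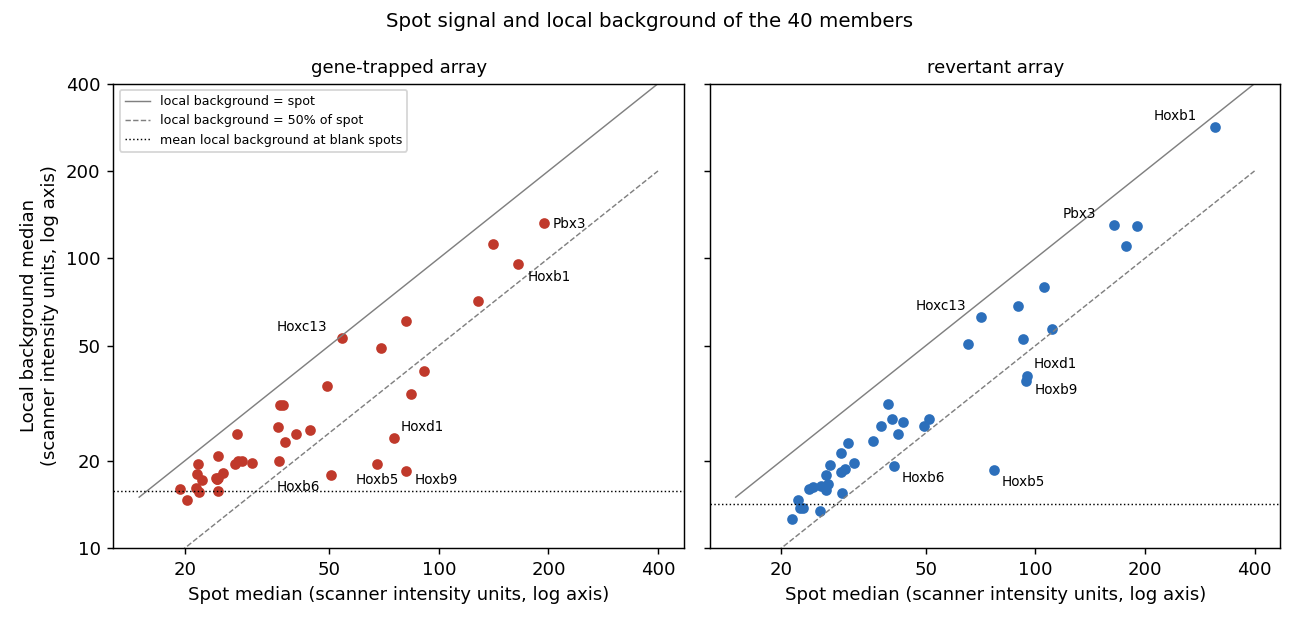
Local background median against spot median (both in scanner intensity, log axes) for the 40 members, gene-trapped array left and revertant array right, with lines where the local background equals the spot (solid) or 50% of it (dashed). Hoxb5, Hoxb6, Hoxb9 and Hoxd1 lie below the dashed line on both arrays, whereas Hoxb1 reaches 91.0% on the revertant array.

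Genes that set up or read HOX expression were given by fixed lists. None of the genes above background on both arrays in 6 such lists was at least 2-fold apart in the main setting. With the local background subtracted, the polycomb gene Mtf2 had 1.34 and Psip1 -1.09. Of 71 genes of these lists with both values in the authors' deposited table, 2 were at least 2-fold higher, T (ratio 2.06) and Dlx2 (2.05), and 3 at least 2-fold lower, Aldh1a1 (0.348), Cbx7 (0.130) and Mllt3 (0.405). Of 13 retinoic acid genes 5 lay above 0, with a median of -0.02. The retinoid-binding protein gene Crabp1 had 0.34 and the receptor gene Rxrb -0.20. Of 9 axis-extension genes 7 lay above 0, with a median of 0.20. The brachyury gene T had spot medians of 188 in gene-trapped and 129 in revertant cells and a log2 difference of 0.76, and the WNT ligand gene Wnt5a had 179 in gene-trapped and 367 in revertant cells and -0.63. Of 16 polycomb genes, whose products keep HOX clusters silent, 11 lay above 0, with a median of 0.06. The polycomb gene Cbx7 had spot medians of 27.1 in gene-trapped and 92.1 in revertant cells (-0.89), and Cbx2 had a log2 difference of 0.33. The 9 trithorax genes, which oppose polycomb, had a median of -0.06, with the methyltransferase gene Ash1l at 0.36 and Wdr5 at -0.22.

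Among 10 regulators and cofactors the median was 0.02. Psip1, which encodes a chromatin reader that tethers MLL complexes, had spot medians of 516 in gene-trapped and 1220 in revertant cells and a log2 difference of -0.97, and the MLL fusion partner gene Mllt3 had -0.35. Of 13 homeobox genes linked to HOX clusters 9 lay above 0, with a median of 0.02. Evx1, which lies next to Hoxa13 and is a late streak gene, had spot medians of 119 in gene-trapped and 93.8 in revertant cells and a log2 difference of 0.54. The midbrain and hindbrain gene Gbx2 had 0.10.

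The 3 nearest protein-coding genes on each side of each cluster, ordered by the RefSeq table, gave 24 genes, of which 20 were above background on both arrays. Their differences ran from -1.07 to 0.93, with a median of 0.07 and 12 above 0. Both extremes lay beside Hoxb1. The adaptor gene Skap1 (Scap1 in the annotation) had spot medians of 82.8 in gene-trapped and 263 in revertant cells (-1.07), and the sorting nexin gene Snx11 had 263 in gene-trapped and 158 in revertant cells (0.93). Cbx1, the third gene on that side, had 0.55. Skap1 was the 1 gene of the 20 at least 2-fold apart. By the same margin, 1.08% of the 13753 named genes compared were lower and 0.334% higher. In the authors' deposited table both Skap1 and Snx11 were 2-fold apart, with ratios of 0.339 for Skap1 and 2.33 for Snx11. There the shares among 14203 named genes were 4.02% lower and 2.01% higher. Whether the neighbours' counts differ from these shares was not tested.

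Other cell types in the sort were gauged by their markers, since HOX genes are used in many tissues. Of 16 stromal and fibroblast markers, 14 were above background on both arrays, Dcn on neither and Prrx1 on the revertant array only. Their summed spot medians were 8580 in gene-trapped and 12230 in revertant cells, a ratio of 0.702 where that over all named genes was 0.808. Of the 14, 5 lay above 0 and the median log2 difference was -0.14. Col5a1 (-1.61), Col1a1 (-1.49) and Acta2 (-1.30) were at least 2-fold lower, while Fn1 had 0.36 and Tagln 0.25. Of 12 early mesoderm markers the sums were 6401 in gene-trapped and 5558 in revertant cells, a ratio of 1.15, and 7 lay above 0 with a median log2 difference of 0.34. Mixl1 (1.99) and Etv2 (1.30) were at least 2-fold higher, while Hand1 had -0.44 and Kdr, which encodes the Flk-1 used for sorting, -0.65. Of 10 listed neural markers, Sox1 and Sox2 were not found among the named genes. Of the 8 neural markers found, 6 were above background on both arrays and Pax6 and Neurog2 on neither. Their sums were 690 in gene-trapped and 558 in revertant cells, to which Otx2 alone gave 311 and 141. The raw spot median was higher in gene-trapped cells at 3 of the 6. Log2 differences were 1.29 at Otx2, 0.58 at Zic2 and -0.42 at Tubb3. Of 6 endoderm markers, 5 were above background on both arrays and Afp on neither, with summed spot medians of 997 in gene-trapped and 1036 in revertant cells and differences of 0.28 at Sox7, 0.26 at Gata6 and -0.14 at Sox17. Of 6 listed markers of undifferentiated cells, Pou5f1 was not found among the named genes. All 5 that were found were above background on both arrays, with sums of 3073 in gene-trapped and 1915 in revertant cells. Tdgf1 alone gave 2249 and 707 of these, and was the 1 marker of the 5 with a higher raw spot median in gene-trapped cells. Log2 differences were 1.88 at Tdgf1, 0.03 at Nanog, 0.12 at Zfp42, 0.07 at Esrrb and -0.36 at Klf4. The part of any of these cells in the Hoxb1, Hoxb6, Hoxb7 and Pbx3 values was not tested.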

How the data were processed

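The deposited scanner files give a linear spot intensity of the Cy5 channel, the median over the spot, read at 3 gains that were joined by least squares, per the file headers. A second, processed intensity table deposited by the authors has a median of 25 per column. The scanner used is not given in the sources. Background correction was by normexp with offset 50 (limma 3.58.1, R 4.3.3) without the local background column, followed by quantile normalisation over probes on the log2 scale. Control spots and 2 flagged probes were left out. Summaries used pandas 2.3.3 and numpy 2.4.6 under Python 3.11.15. The normalisation was tested on simulated data, with changes placed only in probes brighter than most members. How well it recovers changes at dim members was not tested. Symbols are those of the platform annotation (16629 probes with 1, 6842 with none, 0 with several), which can be old.

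A probe above background exceeded the blank mean by 2 SD on its array, and a gene was called at 2-fold. For a member above background on 1 array, the bound divides its signal by whichever is higher on the dim array, the dim signal or the lowest one above background. Positive controls (24 spots of each of 2 kinds) had SDs of the log2 ratio of 0.107 and 0.0988, a spread between spots. The number of arrays limits the precision. Values are given for the 8 largest differences, the 12 brightest members, all Cdx, Meis and Pbx genes and members above background on 1 array, and for partner lists the 2 largest differences and any 2-fold ones. Members, lists and alternatives were chosen with earlier results of these data known. Hoxb3, Hoxb4, Hoxb8 and Hoxb13, the genes named for their local background, the cluster neighbours, the further marker and partner genes given with values and Hoxd10 were picked after their values were seen.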

Additional observations from a re-analysis of the deposited data

Results flagged for a closer look

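Local background readings took no part in the main values, yet many member spots had a raised one. The reading exceeded the mean of the blank spots' local background by more than 2 SD at 28 of 40 members on the gene-trapped array and at 29 of 40 on the revertant array. The same share over all probes is not given here, so the counts are not read as a trait of the members. Across all probes the local background followed spot brightness (correlations of 0.96 on the gene-trapped and 0.97 on the revertant array). Over the members the local background ranged from 14.6 to 133 on the gene-trapped array, with a mean of 15.7 at blank spots, and from 12.6 to 282 on the revertant array, with a mean of 14.3 at blank spots. No replicates were available in which to look for a sample far from its group.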

How the results depend on the processing

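No paired analysis was possible because there is a single array for each genotype. The count of members above background on both arrays was 32, and 31 with a limit of 3 SD, 40 with no limit and 34 with values in both columns of the authors' table. The count of members at least 2-fold higher was 0 in the main setting and in 9 of 10 alternatives, and 3 in the authors' table, which differs in background subtraction, offset and scaling together. Those 9 all keep an offset or the unsubtracted blank level, either of which draws the ratio of a dim gene towards 1. Their count of 0 therefore does not show that dim members were alike. The count at least 2-fold lower was 0 in all 11. The members' median of 0.05 became 0.19 under 75th percentile scaling, which moves the median of all named genes to 0.15, so the members lay 0.04 above it in both settings. Under the others it was lowest, at 0.01, after local background subtraction, and highest, at 0.10, with offset 16 and in the authors' table. Taking the mean of a gene's probes changes no member, since each has 1 probe. Subtracting the local background turned Hoxb1 to 0.48, and apart from the shift under scaling the cause was not tested. Low signal is the limit on depth at every Hoxd gene but Hoxd1 and at other HOX genes with spots near the background limits of 22.3 and 25.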
